A study of Mus musculus with 2 samples.

Results

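The 8 genes described here encode transcription factors of the pancreatic acinar cell, chosen as a fixed list: Ptf1a, Rbpjl, Bhlha15, Nr5a2, Gata4, Foxa2, Foxa3 and Xbp1. All 8 were among the 14789 gene symbols of the table, which holds unique molecular identifier (UMI) counts for 728 single cells. The cells came from the pancreas of adult mice of the genotype Tff2CreERT2; R26-tdTomato, in which a tamoxifen-inducible Cre recombinase expressed from Tff2 switches on a red fluorescent reporter. All mice were tamoxifen induced, and there was no control group. After collagenase-V digestion and removal of dead cells by DAPI, cells without CD45 and TER119 and with EpCAM and the reporter (RFP) were sorted for 10x Genomics libraries. The labels name 2 biological replicates of the 1 group. The sources used here give neither the time after tamoxifen nor whether mice were pooled.

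Acinar cells make and secrete the digestive enzymes, and their identity depends on a trimeric complex, PTF1, in which the basic helix-loop-helix protein PTF1A pairs with an E protein and with RBPJ or its acinar form RBPJL. This complex binds enzyme gene promoters, while the nuclear receptor NR5A2 acts beside it and BHLHA15 (MIST1) and XBP1 build up the secretory apparatus. GATA4, FOXA2 and FOXA3 are factors of the foregut endoderm that also act outside acinar cells, and loss of PTF1A, NR5A2 or BHLHA15 in mice is known to destabilise the acinar state.

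Cells were put into 3 classes. Acinar cells were those with at least 10% of their UMIs from 10 enzyme genes together (Ctrb1, Try4, Cela1, Prss2, Cela3b, Cpb1, Pnlip, Clps, Cela2a and Cpa1), which gave 275 of 728 cells (37.8%, 95% interval 34.2 to 41.4). Ductal cells were those outside that class with at least 5 UMIs of Krt19, Spp1, Ambp and Epcam together, which gave 36 cells (4.95%, 3.49 to 6.78). The other 417 cells (57.3%, 53.6 to 60.9) met neither rule, although the sort selected for EpCAM and against CD45 and TER119. By their markers these were endothelial-like, immune, mesenchymal-like and erythroid-like cells, except for 6 low-enzyme cells that clustered with acinar cells (6.29% of UMIs from the enzymes). In the acinar class the summed markers of these types were low: 8 of 8 endothelial markers gave 106 CPM (5689 CPM in the other cells), 8 of 8 B or plasma markers 17.0 CPM (3405 CPM) and 5 of 5 erythroid markers 324 CPM (83853 CPM). The lowest acinar cell had 11.4% of its UMIs from the enzymes and the highest cell outside the class 8.94%, and every ductal cell had at least 14 UMIs of the 4 ductal genes.

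The table could not be divided into the 2 replicates, because nothing ties a barcode ending to a sample (667 cells end in 1 and 61 in 2). All values therefore come from 1 pooled sample and no test across samples was possible. Intervals are exact 95% intervals for counting error only. The acinar class held 1179733 UMIs (median 2117 per cell), the ductal class 135029 (median 3171) and the other cells 1038246 (median 1989). In the acinar class 53.3% of UMIs came from the 10 enzyme genes, against 1.38% in the ductal class and 1.36% in the other cells. A level is given in CPM (UMIs of the gene scaled to the UMIs of the class), and the large enzyme share lowers the CPM of every other gene in acinar cells. Ratios are therefore also given with the enzyme UMIs left out of the total, which shifted the median log2 ratio of all genes by 1.08 in both comparisons of acinar cells. Where a class had 0 UMIs, 3 counts were taken as the limit, which is 22.2 CPM in the ductal class and 2.89 CPM in the other cells. A set of 7 barcode sequences occurred under both endings (14 cells, all acinar, with 14 UMIs of these 8 genes), and leaving those cells out changed no 2-fold call on any of the 8 genes.

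The promoters of 4 of the genes are shown because their levels set the contrast below. With all UMIs in the total, the interval of the acinar to ductal ratio lay above 1 for Ptf1a, Rbpjl and Bhlha15. That of Xbp1 included 1, and Xbp1 was counted in all 3 classes. Each line gives the bases before the start site in RefSeq (GRCm38.p6, plus strand, 5′ to 3′), with capitals marking every E-box (CANNTG, the site of basic helix-loop-helix proteins) and every RBPJ core (TGGGAA), both searched on either strand. Regions are chr2:19445413-19445662 for Ptf1a, chr2:164402944-164403140 for Rbpjl, chr5:144190036-144190285 for Bhlha15 and chr11:5520391-5520640 for Xbp1. The last 53 of the 250 bases before the RefSeq start of Rbpjl are left out, since GENCODE places them in its first exon.
Ptf1a: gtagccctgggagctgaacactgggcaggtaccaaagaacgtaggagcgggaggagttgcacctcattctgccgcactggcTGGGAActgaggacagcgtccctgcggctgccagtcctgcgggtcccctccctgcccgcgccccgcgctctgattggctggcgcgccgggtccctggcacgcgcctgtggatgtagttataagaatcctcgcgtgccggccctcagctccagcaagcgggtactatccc
Rbpjl: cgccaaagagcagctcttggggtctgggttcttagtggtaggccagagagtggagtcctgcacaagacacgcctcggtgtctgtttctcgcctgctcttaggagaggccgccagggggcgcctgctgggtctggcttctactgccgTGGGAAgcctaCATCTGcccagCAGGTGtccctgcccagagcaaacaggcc
Bhlha15: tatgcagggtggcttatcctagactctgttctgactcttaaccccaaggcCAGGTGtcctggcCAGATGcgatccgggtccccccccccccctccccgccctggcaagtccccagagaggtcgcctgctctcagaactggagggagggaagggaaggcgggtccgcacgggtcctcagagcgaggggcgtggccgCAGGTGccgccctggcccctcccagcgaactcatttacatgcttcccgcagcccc
Xbp1: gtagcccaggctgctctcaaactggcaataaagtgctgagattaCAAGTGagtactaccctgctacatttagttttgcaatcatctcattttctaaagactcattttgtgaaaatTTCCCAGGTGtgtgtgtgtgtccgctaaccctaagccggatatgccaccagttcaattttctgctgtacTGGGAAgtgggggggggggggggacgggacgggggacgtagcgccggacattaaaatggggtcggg

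In the Rbpjl promoter an RBPJ core began 104 bases before the start site and was followed by 2 E-boxes whose first bases lay 11 and 22 bases further on. The PTF1 complex is known to bind such a pair of an E-box and an RBPJ core. The Bhlha15 promoter had 3 E-boxes and no RBPJ core, and the Ptf1a promoter 1 RBPJ core and no E-box. In the Xbp1 promoter, 1 of 2 RBPJ cores shared 2 bases with an E-box. Over all 32851 promoter windows of 250 bases, 66.2% held an E-box, 21.6% an RBPJ core and 14.8% both, so such matches are common. RefSeq promoters were at hand for 7 of the 8 genes (10 start sites, Gata4 not among them). Of these 7 genes, 6 had an E-box, 3 an RBPJ core and 3 a GATA motif (AGATAA, in 9.99% of all windows). No match was found to TNTTTAC for FOXA (10.9% of windows), AAGGTCA for NR5A2 (4.08%) or GACGTG for XBP1 (5.20%). These are matches of letters only.

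Ptf1a, the subunit that gives the PTF1 complex its cell type specificity, had 61 of its 62 UMIs in acinar cells. It lies on chromosome 2 (19445663 to 19447501, plus strand, GRCm38, GENCODE M21). The acinar class held the 61 Ptf1a UMIs in 41 cells (14.9%, 10.9 to 19.7), the ductal class 0 UMIs and the other cells 1 UMI. As a level this was 51.7 CPM in acinar cells (39.6 to 66.4), under 22.2 CPM in ductal cells and 0.963 CPM in the other cells. The ratio was at least 2.33-fold higher in acinar than in ductal cells (the exact interval starts at 1.84), and 53.7 over the other cells with a wide interval (9.28 to 2155), since it rests on 1 UMI. The enzyme UMIs in the other cells, at the ratio of Ptf1a to enzyme UMIs in acinar cells, would bring 1.37 Ptf1a UMIs with them, beside the 1 UMI seen. Free RNA itself was not measured. Without cells over 10% mitochondrial UMIs 24 of the 36 ductal cells were left and the bound was 1.77. An antisense gene, Ptf1aos, overlaps Ptf1a and was not analysed here, and the sources used here do not say whether the counting used strand.

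Rbpjl, the acinar-restricted relative of RBPJ that takes its place in the mature PTF1 complex, lies on chromosome 2 (164403141 to 164415448, plus strand). It was counted 144 times in 68 acinar cells (24.7%, 19.7 to 30.3), 4 times in 4 ductal cells (11.1%, 3.11 to 26.1) and 29 times in 13 other cells (3.12%, 1.67 to 5.27). Its level was 122 CPM in acinar cells (103 to 144), 29.6 in ductal cells (8.07 to 75.8) and 27.9 in the other cells (18.7 to 40.1). The acinar interval lay above both others, and the ratios were 4.12 over ductal cells (1.57 to 15.3) and 4.37 over the other cells (2.92 to 6.76). Without enzyme UMIs in the total they were 8.71 and 9.24. The gene Matn4 overlaps Rbpjl on the opposite strand, and it had 20 UMIs in acinar, 4 in ductal and 2 in the other cells.

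The ratio of Rbpjl to the other cells depended on a few cells next to the class threshold. Of the 29 Rbpjl UMIs outside both classes, 20 lay in 6 of the 11 cells that had 5 to 10% of UMIs from the enzymes. With the acinar class drawn at 5% the ratio over the other cells was 15.5 (7.98 to 34.5), and at 20% it was 2.69 (1.89 to 3.89). In the 406 other cells under 5% enzymes, 9 Rbpjl UMIs were seen where 3.0 would come with their enzyme UMIs. The 11 cells also held 2 of the 3 Bhlha15 UMIs, 2 of the 3 Nr5a2 UMIs and the 1 Foxa2 UMI outside both classes. The ratios of these genes to the other cells, given below, thus also depend on the threshold cells.

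These threshold cells belonged mainly to a cluster of 9 cells, all with barcode ending 1, of which 4 were in the acinar class and 5 among the other cells. Every one of the 9 held Rbpjl, with 10, 8, 6, 4, 4, 3, 3, 2 and 1 UMIs, although their depth was low (median 1391 UMIs). That is 41 UMIs, or 23.2% of all Rbpjl UMIs in the table, and a level of 3049 CPM (2188 to 4136). The level was 29.3 times that of the remaining 271 acinar cells (20.1 to 42.1), and 16.0 times (11.0 to 23.0) without enzyme UMIs. Xbp1 was also higher there, with 12 UMIs in 6 cells and a ratio of 6.31 (3.19 to 11.3), or 3.45 (1.74 to 6.18) without enzyme UMIs. Of these Xbp1 UMIs, 5 lay in 1 cell, a spread between cells that the intervals do not cover. The cluster had 3 UMIs of Bhlha15, a ratio of 6.38 (1.26 to 20.0), or 3.49 (0.691 to 10.9) without enzyme UMIs. It had 2 UMIs of Nr5a2, 1 of Foxa2 and 0 of Ptf1a, Gata4 and Foxa3. The limit of 3 counts is 223 CPM in this cluster, above the levels of Ptf1a, Gata4 and Foxa3 in the remaining acinar cells. A lower level of these genes therefore cannot be read from the 0 UMIs. The 8 genes were left out of the clustering.

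The same 9 cells stood apart in other ways. The nuclear RNA Malat1 took 16.2% of their UMIs (3.23 to 25.0% per cell) against 0.0509% in the remaining acinar cells, mitochondrial transcripts took 13.2% against 1.09%, and the enzymes 14.9% against 53.5%. Matn4 had 1 UMI in the 9 cells. The part of RNA quality or nuclear RNA in the high Rbpjl level was not tested. Without the cluster, Rbpjl was 10.7 times higher in acinar than in the other cells (5.64 to 22.9), and without all cells over 5% Malat1 it was 20.0 times higher (8.35 to 62.6). The cluster and Malat1 were looked at after these values were seen.

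**Figure D1:**
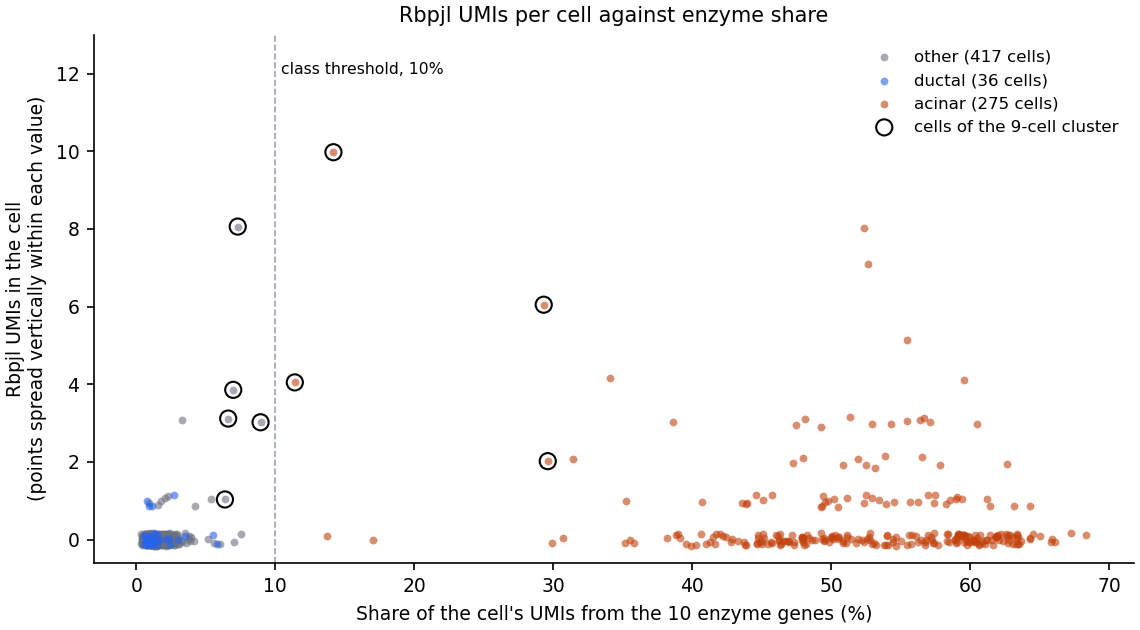
Rbpjl UMIs in each of the 728 cells (vertical axis, points spread within each whole value) against the percent of the cell's UMIs from the 10 enzyme genes (horizontal axis), coloured by class, with the cells of the 9-cell cluster ringed and the 10% class threshold dashed. The ringed cells lie on both sides of the threshold between 6.37% and 29.6% enzymes and reach 10 UMIs, the highest value of any cell.

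Bhlha15 encodes MIST1, which scales up the secretory machinery and granule traffic of exocrine cells. It lies on chromosome 5 (144190286 to 144194441, plus strand). It had 42 UMIs in 39 acinar cells (14.2%, 10.3 to 18.9), 0 in ductal cells and 3 in 3 other cells. The levels were 35.6 CPM in acinar cells (25.7 to 48.1) and 2.89 CPM in the other cells (0.596 to 8.44), a ratio of 12.3 (3.94 to 62.1). Bhlha15 was spread thinly, with never more than 2 UMIs in a cell, where Ptf1a reached 7 and Rbpjl 10. Against ductal cells the depth of that class allowed only a bound of at least 1.60-fold higher, under the 2-fold rule (the exact interval starts at 1.25). With enzyme UMIs left out the bound was 3.39 (the exact interval starts at 2.64).

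Nr5a2, a nuclear receptor that binds acinar gene promoters beside PTF1 and has roles in liver and gut as well, lies on chromosome 1 (136842571 to 136960448, minus strand). It had 31 UMIs in 23 acinar cells (8.36%, 5.38 to 12.3), 8 UMIs in 6 ductal cells (16.7%, 6.37 to 32.8) and 3 UMIs in 2 other cells. The level was 26.3 CPM in acinar cells (17.9 to 37.3), 59.2 in ductal cells (25.6 to 117) and 2.89 in the other cells (0.596 to 8.44). Nr5a2 was therefore counted in both epithelial classes and hardly outside them. The acinar to ductal ratio of 0.444 had an interval that included 1 (0.199 to 1.12), and it was 0.937 (0.421 to 2.36) without enzyme UMIs. Over the other cells the ratio was 9.09 for acinar (2.84 to 46.5) and 20.5 for ductal cells (4.92 to 120).

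Foxa2, a pioneer factor of endodermal epithelia, lies on chromosome 2 (148042877 to 148046969, minus strand) and, like Nr5a2, was counted in both epithelial classes. It had 36 UMIs in 30 acinar cells (10.9%, 7.48 to 15.2), 9 UMIs in 8 ductal cells (22.2%, 10.1 to 39.2) and 1 UMI in the other cells. Its level was 30.5 CPM in acinar (21.4 to 42.2), 66.7 in ductal (30.5 to 127) and 0.963 in the other cells. The acinar to ductal ratio was 0.458 (0.216 to 1.08) and 0.968 (0.457 to 2.28) without enzyme UMIs. The ductal UMIs of both genes were far above what the enzyme UMIs of that class would bring with them, which is 0.0920 for Nr5a2 and 0.107 for Foxa2.

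Foxa3, a paralogue of Foxa2 best known from liver and gut, lies on chromosome 7 (19013284 to 19023538, minus strand). It had 27 UMIs in 24 acinar cells (8.73%, 5.67 to 12.7), 3 UMIs in 2 ductal cells and 0 in the other cells. The acinar to ductal ratio was 1.03 (0.317 to 5.31). With 0 set to 3 counts, Foxa3 was at least 7.92-fold higher in acinar than in the other cells (the exact interval starts at 6.01). Gata4, a zinc finger factor of foregut endoderm and early pancreas, lies on chromosome 14 (63198922 to 63271692, minus strand). It had 22 UMIs in 17 acinar cells (6.18%, 3.64 to 9.71), 1 UMI in the ductal class and 0 in the other cells. Its acinar to ductal ratio of 2.52 rests on that 1 UMI and its interval runs from 0.407 to 104, so the direction cannot be read at this depth. Over the other cells it was at least 6.45-fold higher by the same limit (the exact interval starts at 4.82).

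Xbp1 encodes a leucine zipper factor of the unfolded protein response that is activated by splicing of its mRNA, which a gene count does not show. It lies on chromosome 11 (5520659 to 5525893, plus strand). It had 172 UMIs in 101 acinar cells (36.7%, 31.0 to 42.7), 12 UMIs in 11 ductal cells (30.6%, 16.3 to 48.1) and 89 UMIs in 68 other cells (16.3%, 12.9 to 20.2). The level was 146 CPM in acinar (125 to 169), 88.9 in ductal (45.9 to 155) and 85.7 in the other cells (68.8 to 105). Rbpjl, Nr5a2 and Foxa2 were also counted in all classes, but only Xbp1 had levels within 2-fold of each other in all of them. The acinar to ductal ratio of 1.64 included 1 in its interval (0.915 to 3.24), and the ratio over the other cells was 1.70 (1.31 to 2.22). Both passed 2-fold once enzyme UMIs were left out, at 3.47 (1.93 to 6.84) and 3.60 (2.77 to 4.70).

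**Figure D2:**
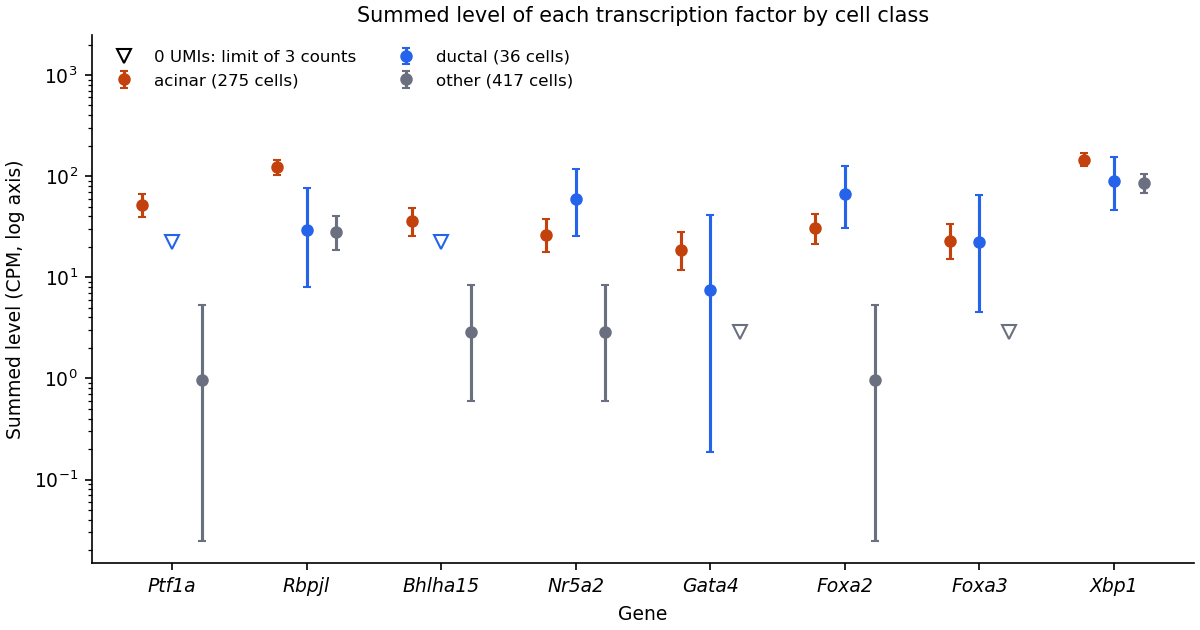
Summed level of each gene in CPM (log axis) in acinar, ductal and other cells, with exact 95% Poisson intervals, and open triangles at the limit of 3 counts where a class had 0 UMIs. Ptf1a and Bhlha15 have no ductal UMI, Nr5a2 and Foxa2 have their highest point in ductal cells with intervals that overlap the acinar ones, and Xbp1 lies between 85.7 and 146 CPM in all classes.

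Against ductal cells the exact interval lay above 1 for Ptf1a, Rbpjl and Bhlha15 and included 1 for the other 5 genes. With enzyme UMIs left out it lay above 1 for Xbp1 as well. The counts at a fixed fold use the ratio alone. All 8 had at least 20 UMIs over both classes. At a fixed ratio of 2, with a class at 0 set to 3 counts, 3 of the 8 had a higher ratio in acinar cells (Ptf1a, Rbpjl and Gata4, the last with an interval that includes 1), beside 6.01% of the 2596 genes with as many UMIs. Another 2 (Nr5a2 and Foxa2, both with intervals that include 1) had a lower ratio, beside 77.7% of those genes, and 3 lay between (Bhlha15, Foxa3 and Xbp1). The median log2 ratio of the 8 was 0.70, beside -2.29 for all genes tested. With enzyme UMIs left out, 6 of the 8 were higher (12.4% of all genes) and 0 lower (55.7%). The gap between those 2 counts shows how far the calls against ductal cells rest on the denominator. Mitochondrial transcripts took 7.51% of UMIs in the ductal class and 1.18% in acinar cells. Without cells over 10% mitochondrial UMIs, which left 24 ductal cells, only Rbpjl stayed at least 2-fold higher (5.79% of 2315 genes) and none was lower (75.9%). Ptf1a and Gata4 had 0 ductal UMIs among those cells, so that neither could pass 2-fold at this depth.

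Against the other cells the picture was more uniform. Of the 8 genes, 7 were at least 2-fold higher in acinar cells and Xbp1 was between, beside 4.1% of 6640 genes higher and 83.9% lower. The median log2 ratio of the 8 was 3.09, beside -2.60 for all genes tested. With enzyme UMIs left out all 8 were higher (7.92% of all genes).

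**Figure D3:**
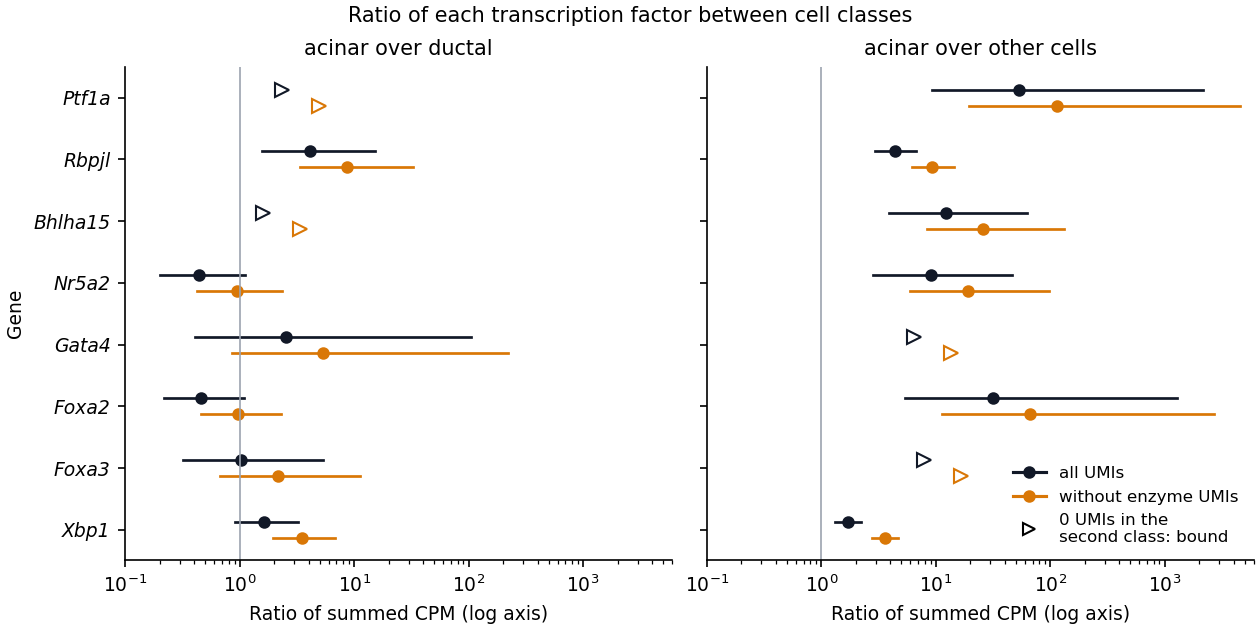
Ratio of summed CPM (log axis) of acinar over ductal cells (left) and acinar over other cells (right) for each gene, with all UMIs in the total (black) or without enzyme UMIs (orange), lines for exact 95% intervals and open triangles for bounds. Leaving out the enzyme UMIs moves every gene to the right, and Nr5a2 and Foxa2 then stand at 0.937 and 0.968 over ductal cells.

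Shares of cells with a UMI are set partly by depth, so each cell was also thinned to 1000 UMIs, which left out 0 cells. In thinned acinar cells the share was 4.73% for Ptf1a, 10.5% for Rbpjl, 5.82% for Bhlha15 and 14.2% for Xbp1, and it lay between 1.45% (Gata4) and 2.55% (Nr5a2 and Foxa3) for the rest. In thinned ductal cells it was 0% for Ptf1a, Rbpjl, Bhlha15 and Foxa3, where 3 counts of 36 cells give a limit of 8.33% on the share of cells with a UMI at this depth (the exact interval ends at 9.74%). Foxa2 and Xbp1 were at 8.33%, Nr5a2 at 5.56% and Gata4 at 2.78% of thinned ductal cells. These thinned shares come from a single random draw. Over all draws of 1000 UMIs the expected ductal share was 3.57% for Rbpjl, 2.05% for Foxa3 and 0.698% for Gata4. It was 0% for Ptf1a and Bhlha15, which had 0 ductal UMIs before thinning. In the other cells, which were about as deep as the acinar cells, the thinned share was 9.11% for Xbp1, 2.16% for Rbpjl and at most 0.480% for the remaining 6. Thinning thus left the order of acinar above other cells in place for each of the 8 genes.

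**Figure D4:**
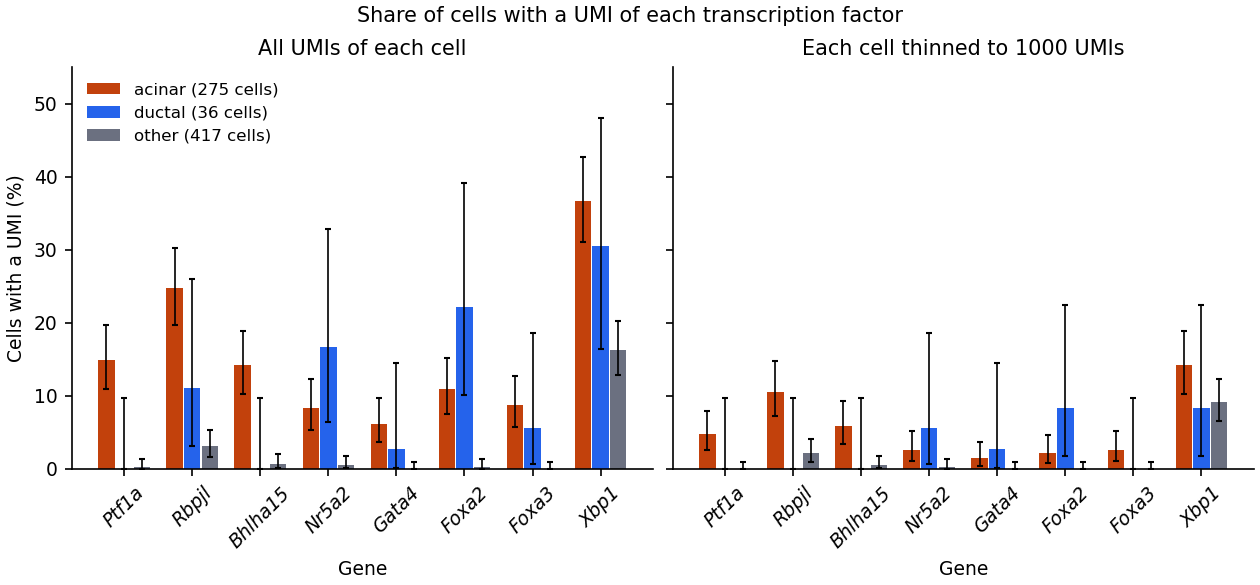
Percent of cells with at least 1 UMI of each gene in acinar, ductal and other cells, with all UMIs (left) and with each cell thinned to 1000 UMIs (right). Bars are shares and lines are exact 95% Clopper-Pearson intervals. Xbp1 and Rbpjl have the tallest acinar bars in both panels, and the ductal intervals are wide because the class has 36 cells.

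Most acinar cells showed few of the 8 factors at this depth. Of 275 acinar cells, 111 (40.4%) had no UMI of any of them (median 1442 UMIs), 164 (59.6%) had at least 1 gene and 45 at least 3. All 8 genes were seen together in 1 cell, the deepest of the table with 53222 UMIs. After thinning, 99 acinar cells (36.0%), 8 ductal cells (22.2%) and 45 other cells (10.8%) had at least 1 of the genes. Ptf1a and Rbpjl, whose products sit in 1 complex, were both counted in 18 acinar cells. That is 43.9% of the 41 cells with Ptf1a, and 21.4% of acinar cells without Ptf1a had Rbpjl. Those 18 cells were deep (median 7953.5 UMIs, against 2117 for the class), and the part of depth in their overlap was not tested. The 10 deepest acinar cells held 108 of the 535 UMIs of the 8 genes in the class.

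Within the acinar class the factors were not evenly spread. Clustering without the 8 genes divided most of the class into 161 cells with a median of 478 genes and 110 cells with a median of 183.5 genes. Summed over the 8 genes, the first set stood at 520 CPM and the second at 201 CPM, a ratio of 2.59 (1.93 to 3.57), or 2.25 (1.67 to 3.09) without enzyme UMIs. Rbpjl was 3.84 times higher in the first set (1.96 to 8.58) and Xbp1 2.05 times (1.27 to 3.50), while the ratio of Ptf1a, 1.71, included 1 in its interval (0.807 to 4.16) and was 0.980 (0.462 to 2.39) among barcodes ending in 1. Ending 2 was carried by 41 of the 110 cells of the second set and 5 of the 161 of the first. Among barcodes ending in 1 the summed ratio was 1.96 (1.40 to 2.81), that of Rbpjl 3.30 (1.48 to 9.17) and that of Xbp1 1.75, with an interval that included 1 (0.992 to 3.36). Foxa2 had 35 UMIs in the first set and 1 in the second, a ratio of 9.02 (1.52 to 366). Among barcodes ending in 1 the Foxa2 ratio was 5.38, with an interval that included 1 (0.904 to 218). The sets also differ in depth, with medians of 2985 and 1513.5 UMIs.

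The summed level of the factors was lower in the cells with the largest enzyme share, but not that of every gene. In the 58 acinar cells with at least 60% enzyme UMIs the 8 genes summed to 229 CPM, against 460 CPM in the 210 cells with 30 to 60%, a ratio of 0.497 (0.334 to 0.715). The ratio was 0.625 (0.420 to 0.899) with enzyme UMIs left out. Ending 2 was carried by 24 of the 58 cells and 22 of the 210, and among barcodes ending in 1 the ratio was 0.605 (0.387 to 0.904). The ratios among barcodes ending in 1 keep the enzyme UMIs in the total, and whether they hold without them was not tested. Xbp1 was lower in the 58 cells, at 0.387 (0.164 to 0.782), or 0.487 (0.206 to 0.983) with enzyme UMIs left out. Ptf1a was at 0.985 (0.378 to 2.17), or 1.49 (0.570 to 3.29) among barcodes ending in 1. The ratio of Foxa3 was 1.73 (0.511 to 4.67) and that of Rbpjl 0.605 (0.270 to 1.19), both with intervals that included 1. Bhlha15 had 2 UMIs in the 58 cells, with an interval that included 1. Nr5a2, Gata4 and Foxa2 had 0 UMIs in the 58 cells. The interval of the Gata4 ratio ended at 1.39. Those of Nr5a2 and Foxa2 ended below 1, but at 1.21 and 1.03 with enzyme UMIs left out. Among barcodes ending in 1 the intervals of Nr5a2, Gata4 and Foxa2 all included 1. Acinar cells with barcode ending 2 had 23 UMIs of the 8 genes in 46 cells, a summed level of 174 CPM against 489 CPM for ending 1 (ratio 0.356, 0.223 to 0.540). Since the endings may be the replicates or another division of the libraries, this gap and any difference between mice cannot be told apart.

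Tff2, the gene whose promoter drives the Cre, was itself counted in acinar cells, and the class was divided into 3 sets by its level. The 8 factors summed to 457 CPM in the 92 cells with most Tff2 and 433 CPM in the 91 with least, a ratio of 1.06 whose interval included 1 (0.826 to 1.36). The low set held 4 cells of the 9-cell Rbpjl cluster, and without them the ratio was 1.42 (1.08 to 1.89). With them, among barcodes ending in 1, it was 0.929 (0.721 to 1.20). The sets differ in depth, with medians of 2665.5 UMIs in the high and 1504 in the low set. The middle set held 248 UMIs of the 8 genes among 538996. Ptf1a was at 68.6 CPM there (48.3 to 94.6), 40.0 in the high set (22.8 to 64.9) and 33.3 in the low one (14.4 to 65.6). Nr5a2 had 17 UMIs in the high set and 0 in the low one, at least 3.40-fold higher (the exact interval starts at 2.48). Rbpjl was lower in the high set, at 0.527 (0.327 to 0.845), but without those 4 cells it had 36 UMIs in the high set and 19 in the low one, a ratio of 1.11 (0.618 to 2.04). The lower Rbpjl level in the high set thus rests on those cells. Malat1 took 0.372% of UMIs in the low set with them, against 0.0345% in the high one. Xbp1 was at 1.01 (0.666 to 1.55).

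Outside the acinar and ductal classes, Xbp1 was counted in 6 of 7 sets of cells and Rbpjl in 4 of 7. The level of Xbp1 was highest in the 6 low-enzyme cells that clustered with acinar cells, at 702 CPM (257 to 1527) from 6 UMIs. Of these UMIs, 5 lay in 1 cell with 24.1% Malat1, so the first place of this set rests on that cell. The interval does not cover such a spread between cells. Mesenchymal-like cells followed at 194 CPM (93.2 to 358, 15 cells), macrophage- or dendritic-like cells at 122 (44.7 to 265, 20 cells) and endothelial-like cells at 105 (75.8 to 142, 172 cells). B- or plasma-like cells came next at 75.8 CPM (42.4 to 125, 100 cells) and T- or NK-like cells at 41.3 (19.8 to 75.9, 87 cells). The 17 erythroid-like cells had 0 Xbp1 UMIs, under 33.6 CPM. Each neighbour in this order overlapped the next in its interval or limit. The acinar class, at 146 CPM, lay between the mesenchymal-like and the macrophage- or dendritic-like cells. Its interval was below that of the 6 low-enzyme cells and above those of the T- or NK-like and erythroid-like cells. This order depended on the clustering. At Leiden resolution 1.0 Xbp1 was at 144 CPM in mesenchymal-like (28 cells), 107 in endothelial-like (159 cells) and 10.7 in T- or NK-like cells (72 cells). A set of 16 cells named by neutrophil markers stood at 142 CPM. The acinar class then lay just above the mesenchymal-like cells. The B- or plasma-like, macrophage- or dendritic-like and erythroid-like sets were unchanged. Rbpjl had 19 UMIs in the 6 low-enzyme cells and 8 UMIs in 6 endothelial-like cells (20.0 CPM), where 1.42 would come with their enzyme UMIs. It had 1 UMI each in B- or plasma-like and T- or NK-like cells and 0 in the rest. The remaining 6 genes had at most 2 UMIs in any such set.

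**Figure D5:**
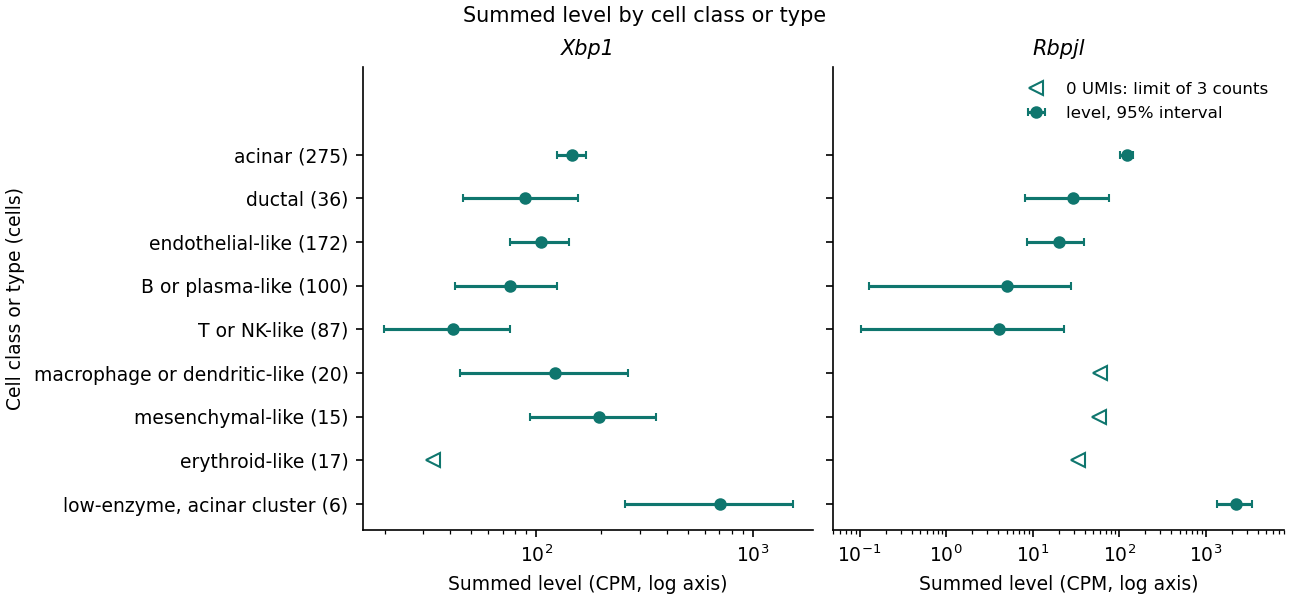
Summed level in CPM (log axis) of Xbp1 (left) and Rbpjl (right) in the acinar and ductal classes and in the cell types of the other cells, with cell numbers in brackets, exact 95% Poisson intervals and open triangles at the limit of 3 counts. Xbp1 is counted in every set but the erythroid-like cells, and both genes have their highest point in the 6 low-enzyme cells of the acinar cluster. For Xbp1 that point rests on 6 UMIs, 5 of them in 1 cell.

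Genes that work with the 8 factors were taken from fixed lists and called among genes with at least 50 UMIs, where 10.6% of 1054 genes were at least 2-fold higher in acinar than in ductal cells and 73.1% lower. Over the other cells 4.63% of 3215 genes were higher and 83.4% lower. The E proteins and RBPJ are partners of PTF1A in its complex. Tcf4 had 32 acinar UMIs (27.1 CPM), as many as some of the 8 factors, and 373 UMIs in the other cells. Tcf3 had 6 and 103, and Tcf12 had 3 and 52. All 3 tested were lower in acinar than in the other cells (median log2 ratio -4.09), as were most genes. Rbpj had 2 acinar UMIs, 2 ductal and 21 in the other cells, under the minimum. None of the 4 could be tested against ductal cells.

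Among 16 ductal and progenitor factors, 4 could be tested against ductal cells and all 4 were lower in acinar cells, with a median log2 ratio of -5.16. Sox9, which marks ducts and multipotent progenitors, stood at 35.6 CPM in acinar and 733 CPM in ductal cells, a ratio of 0.0486 (0.0330 to 0.0703). Hes1, a Notch target, had a ratio of 0.0203 (0.0112 to 0.0349). Hhex had 2 acinar and 62 ductal UMIs, and Sox4 16 and 50. Against the other cells 3 of 3 tested were lower (Hes1, Hhex and Sox4), and 2 of them without enzyme UMIs. The ratios of these 4 genes to ductal cells, of which that of Sox9 was the highest, lay below the intervals of Nr5a2 and Foxa2, which start at 0.199 and 0.216.

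Of 20 XBP1 target genes of the endoplasmic reticulum, 14 could be tested against ductal cells. At the 2-fold rule 6 were higher in acinar cells, 0 lower and 8 between, with a median log2 ratio of 0.66. The 6 were Serp1 (5.41, 3.20 to 9.95), Hyou1 (4.81), Sel1l (4.17, 1.99 to 10.5), Sdf2l1 (3.66), Edem1 (3.03) and Herpud1 (2.34), of which Sel1l, Edem1 and Herpud1 belong to the degradation of misfolded proteins. Hspa5, the chaperone BiP, was at 1.89 (1.22 to 3.09), Pdia6 at 1.23 and Sec61b at 0.783. Against the other cells 5 of 16 were higher (Edem1, Sel1l, Hyou1, Creld2 and Serp1), 1 was lower (Pdia4, 0.415, 0.266 to 0.636) and 10 between. Without enzyme UMIs 10 of 14 and 11 of 16 were higher (16.4% and 8.37% of all genes) and none lower (50.9% and 60.7%). Of the sensors and factors of the unfolded protein response, Atf4 had a ratio of 0.935 (0.512 to 1.87) to ductal and 0.837 (0.628 to 1.12) to the other cells, and Ddit3 of 1.23 (0.717 to 2.15) to the other cells, with intervals that all included 1.

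Of 6 known BHLHA15 targets, 3 had enough UMIs and none reached 2-fold against ductal cells. Nucb2 stood at 1.27 (0.790 to 2.14), Copz2 at 1.42 (0.692 to 3.37) and Rab3d, a small GTPase of zymogen granules, at 1.77 (0.659 to 6.72). Over the other cells Nucb2 (4.62, 3.28 to 6.65) and Rab3d (2.73, 1.63 to 4.77) were higher and Copz2 was at 1.45. Without enzyme UMIs all 3 were at least 2-fold higher in both comparisons, beside the 16.4% and 8.37% of all genes given above. With a minimum of 20 UMIs and zeros set to 3 counts, a further target, Gjb1, went the other way against ductal cells. It was at least 2-fold lower in acinar cells with either total, beside 77.7% of all genes, or 55.7% without enzyme UMIs. Over the other cells Gjb1 was at least 2-fold higher with either total. All 16 of 16 secretory genes outside the class rule were higher in acinar cells in both comparisons (median log2 ratios 5.42 and 5.31), but they travel with the enzymes that define the class. With zeros set to 3 counts and a minimum of 20 UMIs, as for the 8 factors, these medians were 5.31 and 5.32, beside 0.70 and 3.09 for the factors, some of whose ratios are lower bounds. Ptf1a had a log2 ratio of 5.75 over the other cells. It rests on 1 UMI there, and its interval (3.21 to 11.1) spans the secretory median of 5.32. With the prior used for the gene lists it was 5.17, below the secretory median of 5.31, so the order cannot be read.

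Genes whose level ran most like each factor over 8 classes and types (acinar, ductal and 6 others) were sought among 3598 genes with at least 50 UMIs. The points share libraries and differ in depth, and Gata4 had too few UMIs. Most factors had UMIs in few of the 8 classes and types, so r rests on few points, and genes counted in the same ones score near 1. An r over 0.95 was reached by 32 genes for Ptf1a, 14 each for Bhlha15 and Foxa2 and 11 for Nr5a2. For Rbpjl, Foxa3 and Xbp1 it was reached by 4 genes each. For Ptf1a these were Slc38a5, Ctrl and Arhgdig (Pearson r of log2 levels 1.00, 0.998 and 0.993), and for Bhlha15 Itih4, Reg3d and Amy1 (0.998, 0.979 and 0.979). For Rbpjl they were Larp1, Tle6 and Gal (0.977, 0.957 and 0.954). Nr5a2 and Foxa2 both had Prr15l and Urah as their first 2 (0.986 and 0.985, 0.997 and 0.996), genes with higher levels in ductal than in acinar cells. Foxa3 ran with Homer2, Prss8 and Prr15l (0.983, 0.978 and 0.955). Xbp1 ran with Vimp, Pdia6 and Vcp (0.979, 0.977 and 0.976).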

How the data were processed

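Single-cell RNA was measured in 728 sorted pancreatic cells. The deposited table gives raw UMI counts, as its whole-number values show, made with Cell Ranger and mm10 per the submitters' processing notes. The sources used here give no versions, roles, strand setting or filter on cells. Of 14793 rows, 4 symbols on 2 rows each were summed. Of the symbols, 96.9% matched GENCODE M21. Cells held 1004 to 53222 UMIs (median 2085.5).

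UMIs were summed per class and scaled to CPM. Shares have Clopper-Pearson, CPM Poisson and ratios conditional binomial 95% intervals (scipy 1.17.1), for counting error only. Log2 ratios of gene lists carry a prior of 0.5 counts. The ratio script was tested on simulated data. Cells were clustered without the 8 genes in scanpy 1.11.5 (scale 10000, 2000 variable genes, 20 components, 15 neighbours, Leiden resolution 0.5, and 1.0 for the 9-cell cluster), and types were named from marker lists. Thinning used seed 1. No doublet caller was run and no cell removed. A set of 4 acinar cells with at least 5 ductal UMIs was left out as an alternative.

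The 8 genes and all lists were chosen with earlier results of these data known. Named are the 8 genes, in each list the 4 genes with most UMIs and, where 5 or fewer pass the fold, those genes, and for each factor the 3 genes most like it. Hyou1, Sdf2l1, Edem1, Herpud1, Creld2, Pdia4 and, at a minimum of 20 UMIs, Gjb1 were named for their calls. Alternatives covered the total, floor, fold, class thresholds, endings, depth, mitochondrial share and shared barcodes. Leaving out the 9 cells, cells over 5% Malat1 and the 10 deepest cells was added after the data were seen.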

Additional observations from a re-analysis of the deposited data

How the results depend on the processing

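No paired analysis was possible because the cells of the table are not tied to the 2 replicates, and for the same reason no replicate could be left out. Over the alternatives, 102 of 109 ratios of single factors to ductal cells stayed inside the exact interval of the main ratio. Of those to the other cells, 98 of 109 did. Another 6 and 11 moved out of it and 1 reversed: with barcodes ending in 2 only, Rbpjl was 0.841 times its ductal level (0.113 to 37.3). A reversal was counted only where the main ratio was at least 2-fold from 1, so a ratio near 1 could change direction uncounted. Many of these intervals were wide, so staying inside is a weak criterion. The 3 factors at least 2-fold higher than in ductal cells became 6 without enzyme UMIs, 1 without cells over 10% mitochondrial UMIs and 0 with ending 2 only. The 2 that were lower became 0 without enzyme UMIs, 0 with the acinar class at 5%, 0 without cells over 10% mitochondrial UMIs, 1 without cells under 1500 UMIs and 1 with ending 2 only. The 7 higher than in the other cells became 0 with ending 2 only, where 11 such cells were left. Among all genes, the 112 higher and 770 lower than in ductal cells became 181 and 2033 with a floor of 20 UMIs and 281 and 9891 with none, and the higher ones 173 without enzyme UMIs. The 149 higher and 2681 lower than in the other cells became 267 and 5550, then 987 and 11541, and the higher ones 269 without enzyme UMIs. With no floor, 37 genes of the lists were higher than in the other cells. With ending 2 only, 3 counts are 216 CPM in ductal and 101 CPM in the other cells, above the highest level of the 8 genes in acinar cells (Xbp1, 68.0 CPM), so a gene at 0 there could not pass 2-fold and those counts do not bear on the calls. A lower floor tests more genes and a subset of cells has fewer UMIs. For the remaining changes the cause was not tested. The ductal class, with 36 cells, limits every ratio to it.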
